A study of Mus musculus with 12 samples.

Results

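Cholesterol in the cell is sensed in the membrane of the endoplasmic reticulum and taken up by way of the lysosome, and 8 genes of these steps were followed over 12 arrays of mouse 3T3-L1 cells. They were Srebf2, which encodes a SREBP transcription factor, and Scap, Insig1 and Insig2, which sense sterol and control the SREBP factors. The others were Mylip, which limits uptake of low-density lipoprotein, and Npc1 and Npc2, which carry cholesterol out of the lysosome. Last was Stard4, which carries cholesterol through the cytosol. All 8 were chosen by gene symbol, and each was matched by 1 probe set carrying that symbol alone. The 8 probe sets are 8 of the 22206 on the array. On GRCm38.p6, per RefSeq, the genes lie at chr15:82147269-82205379 (Srebf2), chr9:110333288-110384949 (Scap), chr5:28071412-28078662 (Insig1), chr1:121304353-121332662 (Insig2), chr13:45389742-45411940 (Mylip) and chr12:84754559-84773112 (Npc2), with Npc1 and Stard4 on chromosome 18.

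The study asked how squalene and its ethylene glycol derivatives act on gene expression in 3T3-L1, a mouse line of preadipocytes able to become fat cells in culture. The groups were squalene (SQ), mono-SQ, di-SQ, tri-SQ, tetra-SQ (the derivatives) and a control, with 2 Clariom S arrays each. Squalene is a precursor in cholesterol synthesis, and the derivatives carry ethylene glycol. Per the labels, each compound was present at 5 µM and all cells were collected after 14 days. The control is labelled as untreated and without induction, whereas the treatment protocol describes a hormone mix of IBMX, dexamethasone and insulin, then insulin, given with or without compound. What the control received is therefore not settled by the labels. All groups come from 1 cell line, and the labels do not state whether a group's arrays are of separate cultures. The p-values below therefore measure the spread between these arrays, which may be technical. The number of arrays limits the precision of every value.

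As background, SREBP2, the product of Srebf2, is a transcription factor made as a precursor bound to the membrane of the endoplasmic reticulum. SCAP escorts it to the Golgi when sterol is low, where proteases release the active part, and the INSIG proteins hold SCAP back when sterol is high. Active SREBP2 turns on genes of cholesterol synthesis and uptake, and Insig1 and Stard4 are themselves known SREBP2 targets. MYLIP, also called IDOL, is a ubiquitin ligase induced by the sterol-activated LXR receptors, and it marks lipoprotein receptors for destruction. NPC2 binds cholesterol inside the lysosome and hands it to the membrane protein NPC1. Fat cells are a large store of cholesterol, much of it at the lipid droplet.

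The promoter windows below were picked with the results known. Insig1, Mylip and Srebf2 moved down and Npc2 moved up, as described further on. Scap, which also moved up, and Insig2 have windows that are not printed. RefSeq windows on GRCm38.p6, from 250 bases before to 50 bases after each annotated start, were matched by symbol for 6 of the 8 genes, in 9 windows. The windows are Srebf2 at chr15:82147019-82147318 on the plus strand, Insig1 at chr5:28071162-28071461 on the plus strand, Mylip at chr13:45389492-45389791 on the plus strand and Npc2 at chr12:84773063-84773362 on the minus strand. They are printed 5′ to 3′ along the gene. Capitals mark every match, on either strand, to the CCAAT box (CCAAT), the GC box (GGGCGG) and the E-box (CACGTG).
Srebf2: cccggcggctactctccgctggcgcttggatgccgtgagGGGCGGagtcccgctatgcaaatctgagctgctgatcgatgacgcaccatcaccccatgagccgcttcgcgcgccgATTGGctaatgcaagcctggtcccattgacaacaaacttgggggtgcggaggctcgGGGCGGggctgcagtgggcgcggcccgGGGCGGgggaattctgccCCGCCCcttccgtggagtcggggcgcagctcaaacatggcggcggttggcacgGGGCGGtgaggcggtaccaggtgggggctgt
Insig1: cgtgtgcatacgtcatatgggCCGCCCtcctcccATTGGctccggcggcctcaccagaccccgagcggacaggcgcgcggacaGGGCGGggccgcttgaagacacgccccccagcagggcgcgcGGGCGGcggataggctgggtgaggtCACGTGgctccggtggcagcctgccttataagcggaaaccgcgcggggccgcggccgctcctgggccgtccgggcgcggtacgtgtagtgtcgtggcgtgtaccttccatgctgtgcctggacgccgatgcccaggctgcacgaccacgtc
Mylip: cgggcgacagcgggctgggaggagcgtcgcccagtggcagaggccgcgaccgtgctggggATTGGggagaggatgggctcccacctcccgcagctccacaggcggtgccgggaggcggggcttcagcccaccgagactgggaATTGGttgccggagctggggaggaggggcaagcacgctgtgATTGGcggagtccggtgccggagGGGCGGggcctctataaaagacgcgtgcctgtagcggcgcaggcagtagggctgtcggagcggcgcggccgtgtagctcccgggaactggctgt
Npc2: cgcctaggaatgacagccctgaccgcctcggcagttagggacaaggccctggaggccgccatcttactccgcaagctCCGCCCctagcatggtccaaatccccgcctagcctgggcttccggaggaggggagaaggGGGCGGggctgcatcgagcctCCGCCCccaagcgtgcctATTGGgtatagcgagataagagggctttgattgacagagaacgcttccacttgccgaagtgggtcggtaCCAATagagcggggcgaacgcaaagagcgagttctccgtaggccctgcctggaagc

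A sterol regulatory element, searched on both strands as TCACNCCAC, was found in 0 of the 9 windows, and 1.24% of all 32851 windows hold it. That says only that these exact letters are not in these windows. The CCAAT box was found in 5 of the 6 genes, all but Scap, against 41.1% of all 27025 genes with a window. The GC box was found in 6 of the 6 genes, against 38.2% of all genes, and the E-box in Insig1 and Scap, against 8.09%. No match overlapped another. The Insig1 window holds 1 CCAAT box, whose first base lies at -216 from the start, 3 GC boxes, and 1 E-box at -101. The Mylip window holds 3 CCAAT boxes, at -190, -108 and -67, the Srebf2 window 5 GC boxes, and the Npc2 window 2 CCAAT boxes and 3 GC boxes. The printed windows are GC-rich, at 71.7% for Insig1, 71.0% for Mylip, 68.7% for Srebf2 and 62.7% for Npc2, against a median of 52.7% over all windows. Those of Insig2 were at 46.0%, 57.0% and 69.3%, and those of Scap at 58.3% and 62.3%. A match is a run of letters, not a measured binding site.

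The deposited signals are log2 values, so 1 unit is a factor of 2. Signals of different probe sets are not compared with each other, because probes differ in how well they bind. All 8 genes lay above the median of the negative control probe sets on all 12 arrays, by at least 1.11 for Insig2 and by at least 2.82 for the other 7. In every compound group the array numbered 2 in the labels differed from the array numbered 1 in many genes. The 5 arrays numbered 2 are called the second compound arrays here, and the 5 numbered 1 the first compound arrays. Correlation with the first control array over all probe sets was 0.977 to 0.979 for the second compound arrays, 0.989 to 0.993 for the first compound arrays and 0.997 for the other control array. The median signal of the negative control probe sets was 6.48 to 6.66 on the second compound arrays, 6.09 to 6.28 on the first and 6.26 to 6.27 in control. The labels give no cause for the split, and it runs across all 5 compounds. Each result is therefore given by compound and also by class of array. The 5 arrays of a class are of 5 different compounds and not repeats of 1 treatment, so a test of a class speaks of their mean.

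Cells of these cultures carried strong fat cell signals, also in the control. The 10 adipocyte markers lay above the negative control median on all 12 arrays, and Fabp4, a fatty acid carrier, averaged 18.30 in control and Lpl, which releases fatty acids from lipoproteins, 18.12. The summed signal of the 10 markers (the log2 of their summed linear signals) was 17.59 to 18.11 on the second compound arrays, 20.04 to 20.32 on the first and 19.94 to 19.99 in control. In the test of second against first compound arrays 10 of the 10 were lower, where 11.7% of all probe sets were lower and 13% higher. The summed signal of the 7 preadipocyte and fibroblast markers was 19.50 to 19.67 on the second compound arrays, 17.91 to 18.63 on the first and 18.74 to 18.79 in control, with 4 of 7 higher in the same test and Cd34 and Gata2 under the negative control median throughout. The collagens Col3a1 and Col1a1, which averaged 17.77 and 16.73 in control, were among the 4. The summed signal of 7 immediate early genes, which respond within minutes to growth signals, was 16.11 to 16.34 on the second compound arrays. It was 11.50 to 11.80 on the first and 11.68 to 11.85 in control, with 5 of 7 higher, Egr1 and Jun among them, and 1 lower. Fosb lay under the negative control median on all 12 arrays. Fos, also among the 5, averaged 6.41 on the second compound arrays, 4.61 on the first and 4.39 in control, near or under that median. With dim probe sets left out, 4 were higher and 1 lower of 5 kept. Of 6 macrophage markers, 5 lay under the negative control median on all 12 arrays, all but Cd68, and the summed signal of the 6 was 7.64 to 7.88 on the second compound arrays, 7.28 to 7.78 on the first and 7.64 to 7.87 in control. These shifts move with every result on second compound arrays below, and their part in those results was not tested. In bulk RNA, fewer cells of a type and less RNA per cell cannot be told apart.

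**Figure D1:**
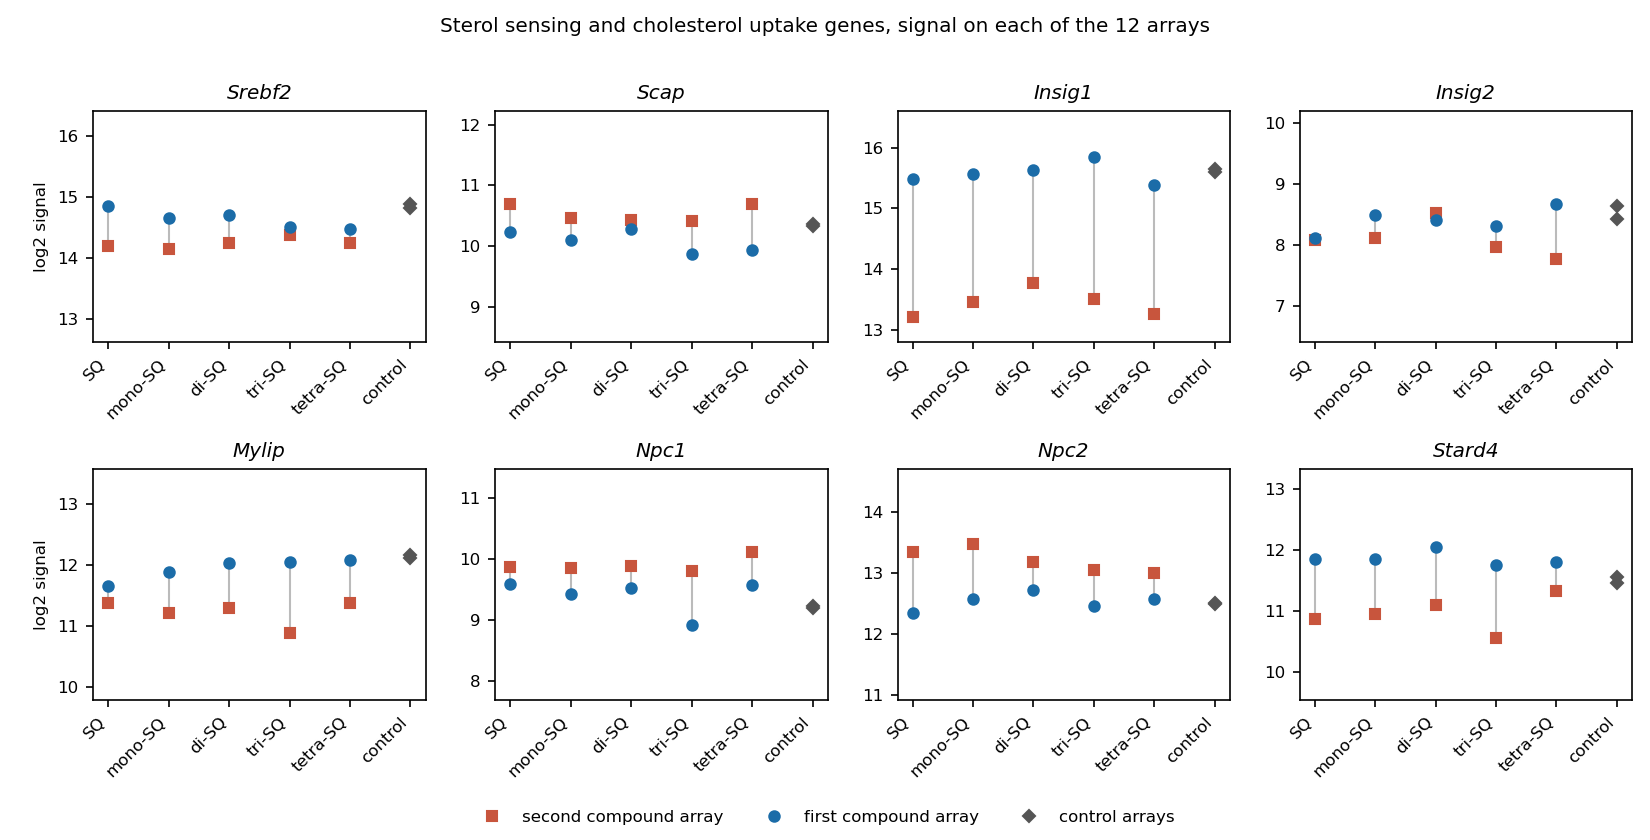
Log2 signal (vertical axes, each spanning the same number of units) of the 8 genes on each of the 12 arrays, by group along the horizontal axis. Red squares are second compound arrays, blue circles first compound arrays, joined by a grey line within a compound, and grey diamonds the 2 control arrays. Insig1 lies between 13.21 and 13.78 on the second compound arrays and between 15.39 and 15.85 on the first, with the controls at 15.60 and 15.65.

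None of the 8 genes differed from control in any compound group past the threshold, an adjusted p under 0.05 in limma over all probe sets. For squalene and for each of its 4 derivatives the count was 0 of 8, and over all probe sets it was 0 of 22206 (0%). At an unadjusted p under 0.05 the numbers of probe sets were 1117, 1310, 1237, 1483 and 1886, in order from SQ through mono-SQ, di-SQ and tri-SQ up to tetra-SQ, and none of the 8 genes was among them. The smallest unadjusted p of any of the genes in this fit was 0.0927, for Npc1 with tetra-SQ. In the authors' deposited table the smallest false discovery rate over all probe sets was 0.9197 for SQ, 0.8349 for mono-SQ, 0.8858 for di-SQ, 0.6519 for tri-SQ and 0.5721 for tetra-SQ.

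Insig1, whose protein retains SCAP in the endoplasmic reticulum, had the widest spread of the 8 genes, and 2.59% of all probe sets ranged more widely over the 12 arrays. Its log2 signal was 15.48 and 13.21 with SQ, 15.57 and 13.46 with mono-SQ, 15.63 and 13.78 with di-SQ, 15.85 and 13.52 with tri-SQ and 15.39 and 13.27 with tetra-SQ, against 15.60 and 15.65 in control. In each compound group 1 array lay near the controls and the other lay far below them. The mean log2 difference from control was -1.28 for SQ, -1.11 for mono-SQ, -0.92 for di-SQ, -0.94 for tri-SQ and -1.29 for tetra-SQ, each with a standard error of 1.13 and adjusted p values of 0.770 to 0.926. These differences are within the spread between the arrays of a compound. In the authors' deposited table the fold changes of Insig1 were -2.44, -2.16, -1.9, -1.92 and -2.46, with a minus sign for lower than control. With a term for the second compound arrays in the fit, the difference was -0.21 for SQ, -0.04 for mono-SQ, 0.15 for di-SQ, 0.13 for tri-SQ and -0.23 for tetra-SQ, with a standard error of 0.20. Those of di-SQ and tri-SQ thereby turned sign. The term applies to the second compound arrays and to neither control, so the fit takes the controls to be like the first compound arrays. The change from the plain differences follows from that setting, and whether the setting holds was not tested. In that limma fit Stard4 differed from control by 0.52 ± 0.22 with di-SQ (SE, unadjusted p = 0.0381, adjusted p = 0.486). With tetra-SQ it differed by 0.52 ± 0.22 (0.0396, 0.357). Without the term these differences were 0.07 and 0.06, and neither passed the threshold. Over all probe sets 2211 had an unadjusted p under 0.05 with di-SQ and 2970 with tetra-SQ in that fit, and none passed.

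Nor did any of the 8 genes pass in the mean of the 5 compounds against control (0% of all probe sets did, and 1977 had an unadjusted p under 0.05). The log2 differences from control were -1.11 ± 0.87 for Insig1 (SE, adjusted p = 0.720), -0.56 ± 0.34 for Mylip (0.660), -0.41 ± 0.23 for Srebf2 (0.637), 0.44 ± 0.26 for Npc1 (0.655) and 0.38 ± 0.32 for Npc2 (0.733). Those of Insig2, Stard4 and Scap were -0.28, -0.09 and -0.03.

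Compounds that differ in ethylene glycol were set against each other and against SQ, all at 5 µM and 14 days. Squalene itself carries no ethylene glycol, and the prefixes were read as the number of glycol units. None of the 8 genes differed in any of the 10 pairs, with p-values adjusted over all probe sets and all pairs (0% called). The order of the compound means was therefore not resolved for any of the 8 genes. For Insig1 the means were 14.35 ± 1.61 with SQ, 14.52 ± 1.49 with mono-SQ, 14.70 ± 1.31 with di-SQ, 14.68 ± 1.65 with tri-SQ and 14.33 ± 1.5 with tetra-SQ, against 15.62 ± 0.04 in control (SD, n = 2 each). The widest pair was tetra-SQ minus di-SQ at -0.38, with a 95% interval of -2.92 to 2.17, so differences of several units in either direction were not detectable.

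Narrower intervals came from the fit with a term for the second compound arrays, in which 0 of the 8 genes passed as well. There the widest pair of Insig1, tetra-SQ minus di-SQ, had an interval of -0.80 to 0.05. The widest pair of Stard4 was tri-SQ minus di-SQ at -0.42 (-0.88 to 0.04), and that of Mylip tetra-SQ minus tri-SQ at 0.26 (-0.24 to 0.75). Npc1 had the smallest p of the 8 genes, for tetra-SQ minus tri-SQ, at 0.48 (0.04 to 0.93, unadjusted p = 0.0370, adjusted p = 0.652). Pairs of Srebf2 lay between -0.16 and 0.08, of Scap between -0.31 and 0.17, of Npc2 between -0.27 and 0.18 and of Insig2 between -0.33 and 0.36. These intervals bound the differences and do not show that the compounds act alike. A straight line over the 4 derivatives, from mono-SQ up to tetra-SQ, passed in 0 of the 8 genes (0% of all probe sets), with slopes between -0.09 per unit for Npc2 and 0.03 for Mylip and Npc1.

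Between the second and the first arrays of the same compounds, 7 of the 8 genes differed past the threshold, 4 lower and 3 higher on the second arrays. The share over all probe sets was 24.7%, with 11.7% lower and 13% higher. Among the 9213 probe sets brighter than the negative controls, to which all 8 genes belong, it was 54.2%. The 7 genes were lower or higher in all 5 compounds, as were 29.3% of all probe sets, and their second and first arrays did not overlap, as in 18.8%. Both of these shares count dim probe sets too and were not taken among the brighter ones. With any 1 of the 12 arrays left out, the other array of its group adds nothing to this difference. Leaving out either array of a group is therefore the same fit. The difference then ran from -2.21 to -2.09 for Insig1, -0.82 to -0.60 for Mylip and -1 to -0.83 for Stard4. It ran from 0.40 to 0.55 for Npc1 and from 0.59 to 0.74 for Npc2. For Srebf2 it was -0.47 to -0.34 and for Scap 0.38 to 0.53, and the call of Srebf2 was lost in most and that of Scap in some of these fits.

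Against control, the second compound arrays gave 5 of the 8 genes past the threshold, 3 lower and 2 higher, against 19% of all probe sets. In the fit with dim probe sets left out 6 of the 8 passed, against 42.5% of the brighter probe sets. Lower calls made up 9.28% and higher calls 9.69% of all probe sets. Without either control array 1 control was left, and calls fell over all probe sets as well as among the 8 genes. That loss is therefore not particular to these genes. With any 1 array left out, the difference was -2.26 to -2.12 for Insig1, -0.95 to -0.83 for Mylip and -0.65 to -0.57 for Srebf2. It was 0.63 to 0.71 for Npc1 and 0.65 to 0.77 for Npc2. The first compound arrays gave 0 of 8 against control, and 1 of all probe sets passed (0.0045%). None of the 8 had an unadjusted p under 0.05 there.

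**Figure D2:**
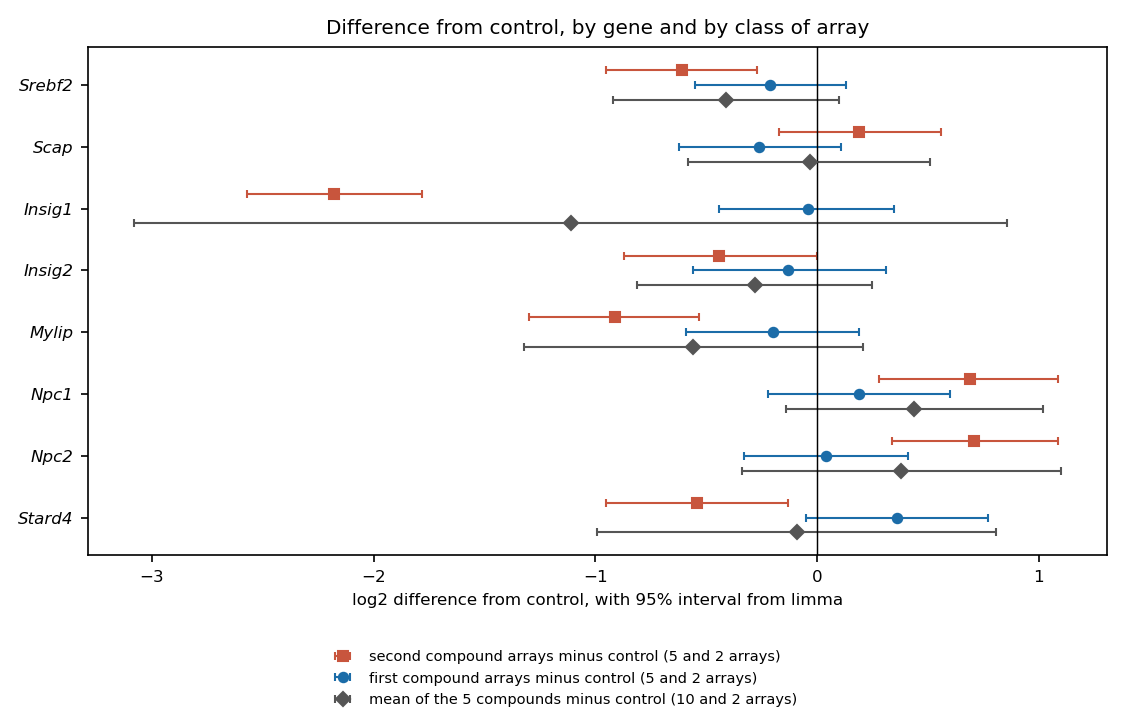
Log2 difference from control (horizontal axis) of the 8 genes, with 95% intervals from limma. Red squares are the second compound arrays (5 against 2 arrays), blue circles the first compound arrays (5 against 2) and grey diamonds the mean of the 5 compounds (10 against 2). Insig1 stands at -2.18 on the second compound arrays and at -0.04 on the first, and the interval of its mean over the compounds runs from -3.08 to 0.86.

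Insig1 was the gene with the largest difference of the 8. It averaged 13.45 ± 0.23 on the second compound arrays and 15.58 ± 0.17 on the first (SD over 5 arrays, 1 of each compound). That is a log2 difference of -2.14 ± 0.12 (SE, limma, adjusted p = 4.57e-07), 4.40-fold lower on the second arrays. The difference was -2.33 to -1.85 in the 5 compounds, against 0.05 between the control arrays. A difference of larger size was found in 1.37% of all probe sets. The second compound arrays differed from control by -2.18 ± 0.19 (adjusted p = 4.61e-07), and the first by -0.04 ± 0.19 (0.957). The first compound arrays lay on both sides of the controls.

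Insig2 encodes the second INSIG protein, which serves the same retention step. Its log2 signal was 7.77 to 8.52 on the second compound arrays, with a median of 8.09, 8.12 to 8.67 on the first, with a median of 8.41, and 8.42 and 8.64 in control. The classes overlapped. Second minus first was -0.31 ± 0.16 (SE, adjusted p = 0.201), lower in 4 of 5 compounds, and the difference did not pass. It lay closest of the 8 genes to the negative controls.

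Srebf2, the gene of the transcription factor itself, had 14.19, 14.14, 14.24, 14.38 and 14.24 on the second arrays, with SQ first and then the derivatives from mono-SQ to tetra-SQ. The first arrays had 14.85, 14.66, 14.71, 14.51 and 14.48, and the controls 14.81 and 14.89. The second compound arrays lay under all others, while the first overlapped the controls. Second minus first was -0.40 ± 0.13 (SE, adjusted p = 0.0381), and this call was lost in most fits that left out 1 array, at adjusted p values of up to 0.109. The second compound arrays were also lower than control, with a difference of -0.61 ± 0.16 (0.0131), and without either control array this was not past the threshold.

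Scap, the escort of the SREBP precursors, ran the other way. It had 10.69, 10.46, 10.43, 10.42 and 10.69 on the second arrays in the same order of compounds, 10.23, 10.11, 10.29, 9.87 and 9.94 on the first, and 10.33 and 10.36 in control. All second compound arrays lay above the controls and all first ones below them. The second arrays were higher than the first by 0.45 ± 0.13 (SE, adjusted p = 0.0239), a call lost in some of the fits that left out 1 array. Neither class passed against control, at 0.19 ± 0.17 for the second (0.496) and -0.26 ± 0.17 for the first (0.580).

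Mylip, the ligase that marks lipoprotein receptors for destruction, had 11.38, 11.22, 11.30, 10.88 and 11.37 on the second arrays in the same order of compounds. It had 11.66, 11.89, 12.03, 12.06 and 12.08 on the first arrays and 12.17 and 12.12 in control. The 3 classes did not overlap, and the controls were highest. Second minus first was -0.71 ± 0.14 (SE, adjusted p = 0.00319), 1.64-fold lower, and it was -1.18 with tri-SQ and -0.28 with SQ. The second compound arrays differed from control by -0.91 ± 0.18 (0.00187), and the first by -0.20 ± 0.18 (0.703).

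Npc1, the lysosomal membrane protein that exports cholesterol, had 9.87, 9.85, 9.88, 9.80 and 10.11 on the second arrays in that order of compounds. The first arrays had 9.59, 9.43, 9.52, 8.91 and 9.57, and the controls 9.20 and 9.23. All second compound arrays lay above all others, and the first array of tri-SQ lay below the controls while the other 4 lay above them. Second minus first was 0.50 ± 0.13 (SE, adjusted p = 0.0152). The second compound arrays were higher than control by 0.69 ± 0.19 (0.0190), a call lost without either control array.

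Npc2, the soluble partner of NPC1, had 13.35, 13.48, 13.19, 13.05 and 13 on the second arrays of the 5 compounds in the same order. It had 12.35, 12.58, 12.73, 12.46 and 12.57 on the first arrays and 12.51 and 12.49 in control. The second compound arrays lay above all others, and the first overlapped the controls. Second minus first was 0.68 ± 0.13 (SE, adjusted p = 0.00286), 1.60-fold higher. Against control the second compound arrays were higher by 0.71 ± 0.18 (0.00876), a call lost without either control array, and the first differed by 0.04 ± 0.18 (0.958).

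Stard4, a carrier of cholesterol between membranes, had 10.87, 10.95, 11.10, 10.56 and 11.33 on the second arrays, again from SQ to tetra-SQ. The first arrays had 11.85, 11.85, 12.05, 11.75 and 11.81, and the controls 11.56 and 11.45. All second compound arrays lay below the controls and all first ones above them, so that the mean over the compounds, 11.41, was near the control mean of 11.50. Second minus first was -0.90 ± 0.13 (SE, adjusted p = 0.000440), 1.87-fold lower. Neither class passed against control, at -0.54 ± 0.19 for the second (0.0606) and 0.36 ± 0.19 for the first (0.473). The second class passed without the second array of tetra-SQ (0.0271) and with probe sets at the level of the negative controls left out (0.0228).

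Stard4 and Scap thus had their second and first compound arrays on opposite sides of both controls, 2 of the 8 genes against 2.65% of all probe sets. First compound arrays did not overlap the controls in Mylip, Scap and Stard4, 3 of 8 against 20.4% of all probe sets. Second compound arrays did not overlap the controls in 7 of 8, all but Insig2, against 38.2%. These shares count dim probe sets too and were not taken among the brighter ones, to which all 8 genes belong. The comparisons of the 2 classes with control share the control arrays.

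**Figure D3:**
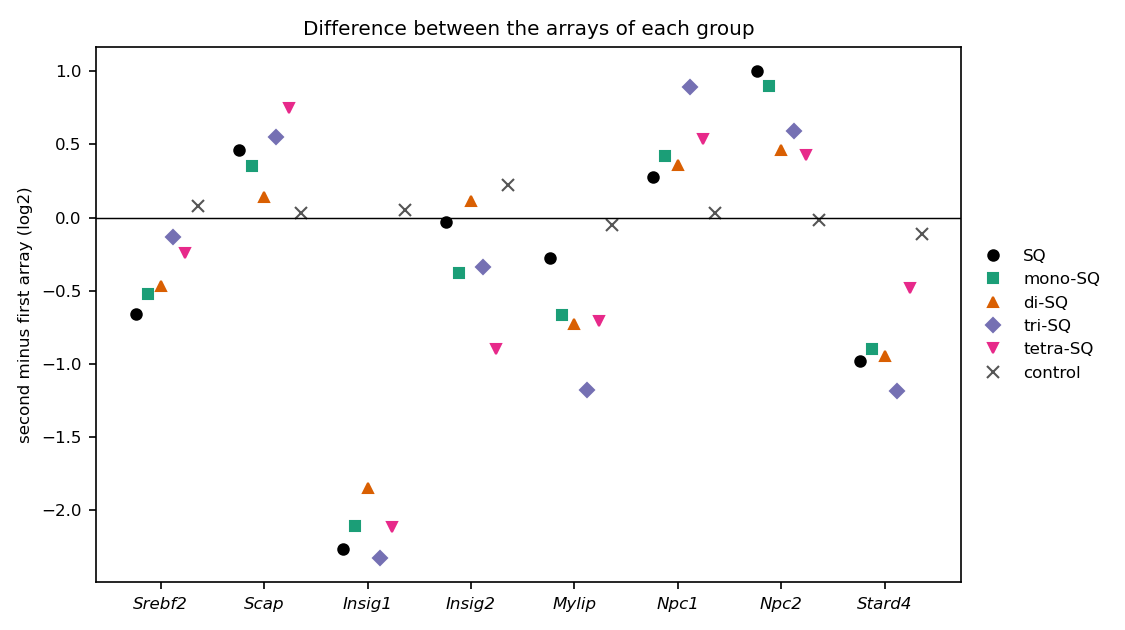
Log2 difference of the second minus the first array (vertical axis) within each of the 5 compounds (coloured symbols) and within control (cross), for the 8 genes along the horizontal axis. Insig1 lies between -2.33 and -1.85 in the 5 compounds and at 0.05 in control, and Insig2 is the gene with compounds on both sides of 0.

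Among the other genes of the pathway, the enzymes of cholesterol synthesis were lower on the second than on the first compound arrays in 15 of 18 genes measured, with 0 higher and a median log2 difference of -1.39. Mvk, among the 15, lay under the negative control median on 5 of the 5 second compound arrays. Over all probe sets 11.7% were lower and 24.7% passed in either direction, 54.2% of the brighter ones passed, and the median over all was -0.02. Dhcr7, an enzyme of the final steps, averaged 9.33 on the second compound arrays, 11.88 on the first and 11.89 in control, a second minus first of -2.55 ± 0.15 (SE, adjusted p = 4.68e-07). Msmo1, a sterol demethylase, averaged 9.63 on the second compound arrays, 12.07 on the first and 11.62 in control, a difference of -2.44 ± 0.21 (1.04e-05). On the first compound arrays 0 of the 18 enzymes differed from control.

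The machinery that processes SREBP and degrades sterol-regulated proteins had 4 of 9 measured genes lower and 1 higher, with a median of -0.23. That is 55.6% called, against 24.7% of all probe sets and 54.2% of the brighter ones, to which all 9 belong, so the share is near the background of probe sets of such brightness. Erlin1, a membrane adaptor in that degradation, differed by -1.17 ± 0.18 (SE, adjusted p = 0.000692). Mbtps1, the Golgi protease that makes the first cleavage of SREBP, was higher by 0.59 ± 0.13 (0.00701). Srebf1, Mbtps2, Ufd1 and the enzyme Tm7sf2 had no usable probe set, with that symbol alone.

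Genes of lipoprotein uptake had 5 of 10 lower and 2 higher, with a median of -0.50, which is 70% called against 24.7% of all probe sets. Of its 8 brighter genes 8 passed when dim probe sets were left out, against 54.2% of the brighter probe sets. Scarb1, the receptor for high-density lipoprotein, differed by -3.00 ± 0.16 (SE, adjusted p = 3.02e-07), and Cd36, a fatty acid and lipoprotein receptor, by -2.63 ± 0.13 (1.91e-07).

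Of 15 genes of sterol transport and esterification, 4 were lower and 3 higher, with a median of 0.01. That is 46.7% called, against 24.7% of all probe sets. Of its 11 brighter genes 6 passed when dim probe sets were left out, near the 54.2% of the brighter probe sets. Soat2, which esterifies cholesterol, averaged 5.36 on the second compound arrays, 6.70 on the first and 7.07 in control. It lay under the negative control median on 5 of the 5 second compound arrays, so its level there is only bounded and its rank in the list rests on a signal that was not above background. Gramd1a, a carrier that brings cholesterol from the plasma membrane, differed by -1.23 ± 0.19 (0.000636). Of 8 genes of the LXR receptors and cholesterol efflux, 5 were lower and 1 higher, with a median of -1.47, which is 75% called against 24.7% of all probe sets. Apoe, among the lower genes, lay under the negative control median on 5 of the 5 second compound arrays. Arl4c, the higher gene, lay under it on 4 of those 5 and on 5 of the 5 first. Of the 6 brighter genes of this list 5 passed when dim probe sets were left out, against 54.2% of the brighter probe sets. Nr1h3, the gene of LXR alpha, averaged 6.99 on the second compound arrays, 10.53 on the first and 10.61 in control, a difference of -3.54 ± 0.17 (1.11e-07). Abcg1, an efflux transporter, averaged 6.48 on the second compound arrays and 8.96 on the first, a difference of -2.48 ± 0.17 (1.55e-06), and lay under the negative control median on 3 of the 5 second compound arrays.

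**Figure D4:**
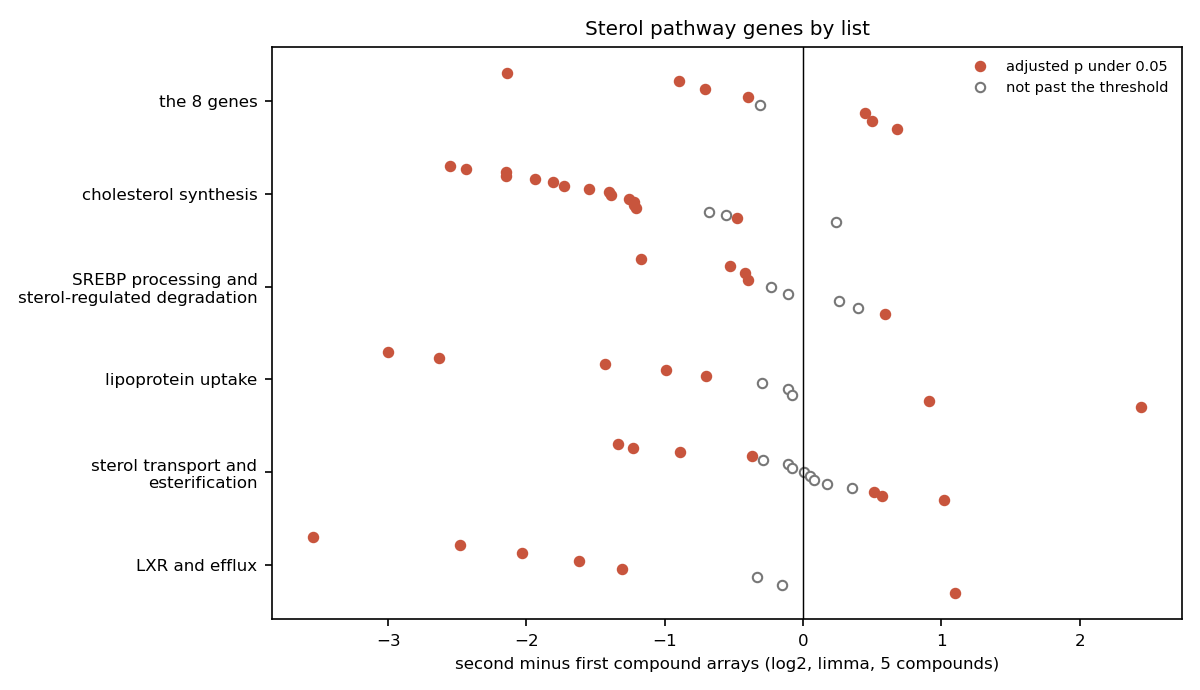
Log2 difference of second minus first compound arrays (horizontal axis) for each measured gene of the 8 genes and of 5 other lists of the sterol pathway (rows), 1 point a gene. Red points have an adjusted p under 0.05 in limma, and open points have not. In cholesterol synthesis 15 of 18 points are red and lie to the left of 0, whereas sterol transport has 4 red points on the left and 3 on the right.

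For the 5 genes whose log2 signal ranged over more than 1 unit, the genes of most like profile were sought over the 12 arrays among 10060 other probe sets that carry 1 named gene and lie at or above the median level. Likeness was the root mean squared difference between profiles, each centred on its own mean. Nearest to Insig1 were Fads2, a fatty acid desaturase, at 0.118, and Abca1, a cholesterol efflux transporter, at 0.123. Nearest to Mylip were Slc25a39, Suds3 and Slc48a1, at 0.107 to 0.114. Srsf3, Rhoa and Ndst1 were nearest to Npc1, at 0.0983 to 0.128, and Nucb2, Efemp2 and Capg to Npc2, at 0.118 to 0.127. Mtfr1, Ccnd2 and Klhl42 were nearest to Stard4, at 0.130 to 0.142. All these profiles share the split between second and first compound arrays, so the likeness is over few independent points.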

How the data were processed

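RNA of 3T3-L1 cells was measured on 12 arrays in 6 groups. Per the series' design text, the authors used the SST-RMA algorithm of the Transcriptome Analysis Console, version 4.0.1. What they deposited are log2 signals with 2 decimals for 22206 probe sets, per the file headers. Their own comparisons, deposited by compound, hold a fold change against control (a score with a sign), a p-value and a false discovery rate, per the file headers, and the sources used here do not name their test. A second deposited table of log2 values of the same arrays, with negative control probe sets, served as an alternative.

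Fits used limma 3.58.1 (R 4.3.3, two-sided moderated tests) on the deposited log2 signals of all probe sets, with Benjamini-Hochberg adjustment and a threshold of 0.05. Comparisons of compounds used 6 groups, which leaves 6 residual degrees of freedom. Second minus first compound arrays added 1 term to that fit, and comparisons of classes used control, first and second compound arrays. The fits were tested on simulated data with spread drawn independently for each array. That is a simpler setting than the split between arrays seen here, so it does not bear on that split. Alternatives were the second table, quantile normalization, leaving out dim probe sets, eBayes with trend and robust, a replicate block, a term for the second compound arrays, and leaving out each array. Probe sets were placed on the genome through the RefSeq table of GRCm38.p6, which also gave the promoter windows. Of the 102 entries of the gene lists, 4 had no usable probe set.

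The 8 genes and the lists were chosen with earlier results of these data known. All 8 are named. From each other pathway list the 2 genes with the largest second minus first difference are named, from each marker list the 2 highest in control, and for genes ranging over more than 1 log2 unit the 3 most similar profiles. Some genes that this rule names are not reported here. A gene that passed between first compound arrays and control would have been named too, up to 2 a list.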

Additional observations from a re-analysis of the deposited data

Results flagged for a closer look

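Each class of 5 compound arrays was checked for each of the 8 genes for an array that stood apart from the other 4, which made 16 checks, and chance alone flags about 1 in 20 such groups. The check flagged 2, both in Npc1. On the first compound arrays, tri-SQ stood at 8.91, with the nearest of the others at 9.43. On the second compound arrays, tetra-SQ stood at 10.11, with the nearest of the others at 9.88. The cause of either was not tested.

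Scap and Stard4 had every second compound array on one side of both controls and every first compound array on the other. The difference itself passed the test in both. Scap was higher on the second arrays, at a second minus first of 0.45 ± 0.13 (log2, SE, limma, adjusted p = 0.0239, in 5 of 5 compounds). Stard4 was lower, at -0.90 ± 0.13 (adjusted p = 0.000440, in 5 of 5 compounds). The first and second arrays of a compound carry the same labelled treatment, and what separates them is not given in the labels.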

How the results depend on the processing

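The counts of 0 of 8 (each compound, their mean, the pairs, the trend and the first compound arrays against control) were 0 under every alternative run. Over all probe sets, too, 0% passed under every alternative for each compound, their mean and the trend. For the first compound arrays at most 0.0225% did. The counts of 0 are therefore not particular to these genes. In second minus first, 5 to 7 of the 8 genes passed under the alternatives that kept all compound arrays, against 21.2% to 25.8% of all probe sets. With dim probe sets left out the share was 54.2%. The calls of Srebf2 and Scap were lost in some fits with 1 array left out. Srebf2 was not past the threshold in second minus first under quantile normalization (-0.34, limma, adjusted p = 0.112) and in the compound arrays alone (-0.40, 0.0748). Nor was Scap in the compound arrays alone (0.45, 0.0512). Leaving out either control array gives this same fit of the compound arrays. In second compound arrays against control the count was 2 to 6 with 1 array left out, at 2 without either control array and 6 without the second tetra-SQ array. Stard4 passed there under quantile normalization, eBayes with trend and robust, and without dim probe sets. Insig1 with di-SQ turned to 0.15 with a term for the second compound arrays and 0.01 without those 5 arrays, and ran from -1.84 to 0.01 with 1 array left out. With tri-SQ the values were 0.13 and 0.23, and -2.10 to 0.23. In the mean of the compounds Stard4 turned to 0.36 under both, and ran from -0.21 to 0.03 with 1 array left out, and Scap from -0.11 to 0.04. Against control, the first compound arrays ran from -0.11 to 0.01 for Insig1 and from -0.01 to 0.09 for Npc2. None of the values that turned sign passed the threshold. With the term, the turn follows from how the term is set, and the cause of the split between arrays was not tested. Leaving out all 5 second or first compound arrays, and testing the difference within compounds alone, were chosen after seeing the data. The labels do not say that a replicate number is shared. Same-numbered arrays deviated together between compounds (0.48 to 0.72) and not between compound and control (0.00). With the replicate number as a block in limma, 0 of 8 genes passed for each compound. Insig1 had an unadjusted p of 0.0225 with SQ, 0.0420 with mono-SQ and 0.0213 with tetra-SQ (adjusted 0.436, 0.429 and 0.273). Over all probe sets 2286, 2530 and 3362 had an unadjusted p under 0.05 for these compounds, and none passed. Second minus first, a difference between arrays and not between compounds, passed in 5 of the 8 genes in the compound arrays alone, against 21.2% of all probe sets.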
